A study of Mus musculus with 6 samples.

Results

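Mitochondrial movement inside cells, and the passage of mitochondria from one cell to another, were followed through 9 genes in a gene table of mouse chondrocytes, the cells that make and keep the matrix of cartilage. They are Rhot1, Rhot2, Trak1, Trak2, Kif5b, Gja1, Tnfaip2, Myo10 and Cd38. They were chosen by symbol, and all 9 were found once each among the 26969 genes of the table. The study set chondrocytes beside chondrocytes given mitochondria, which its title traces to osteocytes, the cells embedded in bone. It holds 6 poly(A) RNA libraries of wild-type cells, 3 described as mAC and 3 as mAC_Mito. The labels contradict each other: the libraries described as mAC_Mito are titled and annotated as vehicle, and those described as mAC as mitochondria. Groups are therefore named by the description, which the columns of the table share, every difference is mAC_Mito minus mAC, and none is a direction of an effect of mitochondria. The labels give no strain, age, dose of mitochondria or time after transfer. Nothing in them says whether the 3 replicates are separate cultures, and p-values therefore cover a spread among libraries that may be technical.

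Mitochondria travel along microtubules on motor proteins. On their outer membrane sit the Miro GTPases, encoded by Rhot1 and Rhot2, which bind the TRAK adaptors, and these in turn hold kinesin-1, the motor whose widely expressed heavy chain is Kif5b, or dynein, which moves the other way. Cells can also pass mitochondria to neighbours, through thin actin-based bridges called tunnelling nanotubes, through contacts that carry connexins, or as released and re-engulfed material. TNFAIP2 (M-Sec) and the filopodial motor myosin-X are known for building such protrusions, connexin 43 (Gja1) for mitochondrial transfer from stromal cells, and the NAD-consuming surface enzyme CD38 for the release of mitochondria by astrocytes and for their transfer to myeloma cells. Gja1 is also the main gap junction protein of cells of the skeleton.

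Promoters of the most abundant gene (Gja1), of the gene with the lowest p-value (Trak1) and of the least abundant gene (Cd38) are shown to give the sequence context of the levels below. Each is the RefSeq window on GRCm38.p6 from 250 bases before to 50 bases after a transcription start, on the plus strand: chr10:56377050-56377349 for Gja1, chr9:121297252-121297551 for the first of 4 Trak1 windows, and chr5:43868559-43868858 for Cd38. Capitals mark matches on either strand to the SP1 box (GGGCGG), the CCAAT box (CCAAT), the TATA box (TATAAA), the AP-1 site (TGANTCA), the cyclic AMP element (TGACGTCA) and the NRF1 core; neighbouring matches may overlap.
Gja1: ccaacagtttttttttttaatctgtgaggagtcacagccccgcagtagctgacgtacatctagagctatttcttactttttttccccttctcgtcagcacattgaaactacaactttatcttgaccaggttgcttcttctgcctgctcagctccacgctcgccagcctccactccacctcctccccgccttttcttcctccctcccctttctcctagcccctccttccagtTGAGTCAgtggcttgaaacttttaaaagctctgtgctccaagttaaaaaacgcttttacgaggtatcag
Trak1: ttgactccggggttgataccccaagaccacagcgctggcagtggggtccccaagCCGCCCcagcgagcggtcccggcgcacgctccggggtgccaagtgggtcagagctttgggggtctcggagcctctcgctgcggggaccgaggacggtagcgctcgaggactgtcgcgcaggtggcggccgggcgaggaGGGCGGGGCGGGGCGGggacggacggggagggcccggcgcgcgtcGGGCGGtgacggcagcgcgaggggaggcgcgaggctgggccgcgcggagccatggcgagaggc
Cd38: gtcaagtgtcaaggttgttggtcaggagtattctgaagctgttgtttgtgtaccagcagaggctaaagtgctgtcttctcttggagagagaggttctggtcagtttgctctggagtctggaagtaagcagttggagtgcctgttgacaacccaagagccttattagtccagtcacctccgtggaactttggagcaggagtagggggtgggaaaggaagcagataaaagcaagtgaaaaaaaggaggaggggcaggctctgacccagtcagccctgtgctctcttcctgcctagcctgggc

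The Gja1 window held 8 CpG dinucleotides and 1 AP-1 match, a motif present in 7.81% of the 32841 promoters of this length. The Trak1 window held 41 CpG and 5 SP1 boxes, which occur at least once in 35.7% of promoters. The Cd38 window held 1 CpG and no match to any of the 6 motifs. It lies wholly inside Cd38 as the gene table places it, from 43868553 on the plus strand. The RefSeq start used for the window thus lies downstream of the start of that gene model. Of all promoters, 37.4% held a CCAAT box, 13.6% a TATA box, 1.79% a cyclic AMP element and 0.971% an NRF1 core. In all, 12 windows were found for 8 of the 9 genes, not for Kif5b. Of these, 10 had more CpG than the median promoter, which has 7, and 7 held an SP1 box. Rhot1 had 26 CpG and 2 SP1 boxes, Rhot2 14 and 2, Trak2 21 and 1, Tnfaip2 23 and 3, and the first Myo10 window 23 and 5. A match to these letters is a description of the window and not a site of binding.

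Libraries held between 59116068 and 68378213 counts, and the 9 genes together took 0.0711% to 0.0804% of them. The 10 chondrocyte markers were all detected, led by the cartilage collagen Col2a1 (1117 ± 101 FPKM in mAC and 1390.3 ± 384 in mAC_Mito; SD, n = 3). FPKM scales a count by gene length and library size, so that it compares genes of different length. Markers of other cells were present beside them: Lyz2 of macrophages at 60.0 ± 10.1 and 73.9 ± 20.1 FPKM, Fabp4 of adipocytes at 41.6 ± 11.8 and 48.6 ± 7.96, and Tnnt3 of muscle at 16.1 ± 2.85 and 16.3 ± 0.531. The library protocol speaks of an adipose type, while the other labels say chondrocytes. Endothelial and neural markers were low throughout, with their highest members Cdh5 at 0.119 ± 0.058 and 0.132 ± 0.0233 and Mbp at 0.422 ± 0.11 and 0.388 ± 0.0466. Pdpn led the osteoblast and osteocyte markers at 51.1 ± 8.57 and 42.0 ± 7.29 FPKM, while the osteocyte genes Dmp1, Sost and Fgf23 did not exceed 0.104, 0.0489 and 0.0472 FPKM in any library. None of these marker lists held a gene past the adjusted threshold. The fitted log2 fold change was above 0 for 50.4% of all genes, with a median of 0.0016. It was above 0 for 9 of 9 tested muscle markers (median 0.29), 6 of 6 adipocyte markers (0.17) and 5 of 6 endothelial markers (0.22). So it was for 8 of 10 macrophage and leukocyte markers (0.29) and 4 of 6 osteoblast and osteocyte markers (0.10). Chondrocyte markers had 7 of 10 above 0 (0.05) and neural markers 1 of 3 (-0.16). Genes of a list can vary together, so these counts are not independent. Muscle markers summed to 38.1, 49.3 and 57.0 FPKM in mAC and to 58.5, 48.1 and 57.7 in mAC_Mito. Adipocyte markers summed to 52.7, 77.9 and 84.8 and to 88.5, 70.1 and 88.1. The muscle, adipocyte and macrophage sums were lowest in mAC 1, and those of the other lists in a mAC_Mito library. On TMM-scaled counts 2 macrophage and leukocyte markers, 1 osteoblast and osteocyte marker and 1 muscle marker did not overlap between the groups. All were higher in mAC_Mito, and the other marker lists held 0 such genes. Over all genes 8.31% did not overlap. The osteoblast and muscle ones were Bglap2 (an osteocalcin gene) and Myh8 (a myosin heavy chain of muscle), named after their values were seen. Their log2 fold changes were 1.296 and 0.53 (edgeR adjusted p = 0.99992 each). The part of such cells in the results below was not tested. In such bulk samples, fewer cells of a type and less RNA per cell cannot be told apart.

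No gene of the transport machinery or of the transfer routes passed the test between the groups. With edgeR's quasi-likelihood test over all 17645 genes with enough counts, all 9 were tested and 0 passed a Benjamini-Hochberg adjusted p of 0.05, where 0.0113% of all genes did. Their adjusted p was 0.99992 each. DESeq2 and limma also called 0 of the 9. At an unadjusted p under 0.05 there was 1 of 9, Trak1, against 3.19% of all genes. Groups failed to overlap on TMM-scaled counts for 1 of 9, again Trak1, against 8.31% of all genes. The fitted log2 fold change was above 0 for 6 of 9, against 50.4% of all genes, with a median of 0.03 beside 0.0016 over all genes. These counts bear on single genes of a small list, and no direction is read from them.

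**Figure D1:**
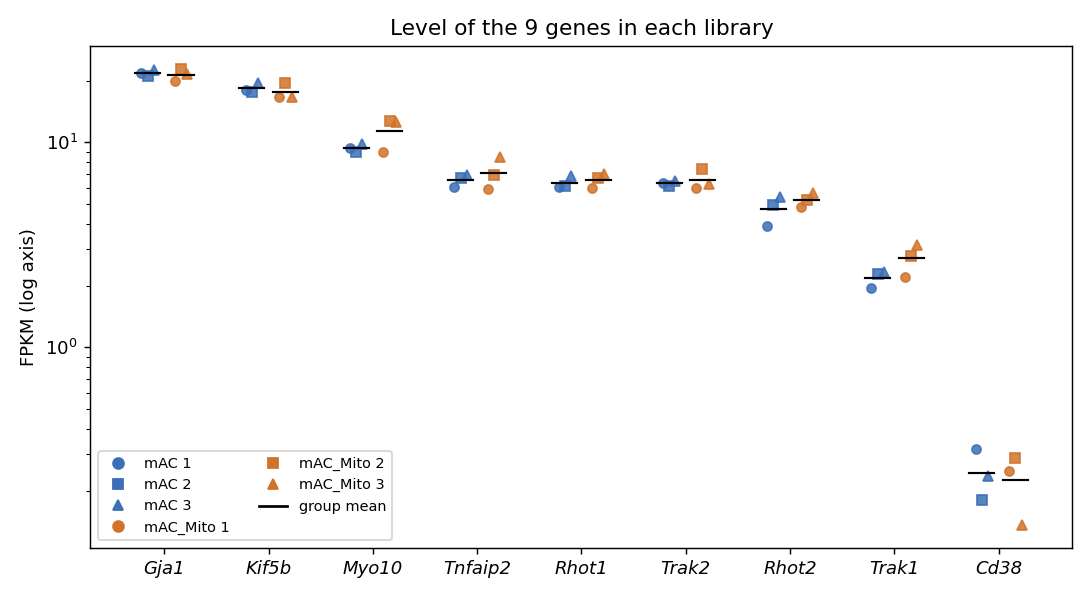
FPKM of the 9 genes (log axis) in each library, blue for mAC and orange for mAC_Mito, with circles, squares and triangles for replicates 1, 2 and 3 and a bar for the group mean. Gja1 and Kif5b sit highest in all 6 libraries, Cd38 lies below 0.32 FPKM in all of them, and the groups overlap for each gene.

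The order of the levels was the same for most neighbours in every library. Gja1, at a mean of 21.6 ± 1.1 FPKM over the 6 libraries, stood above Kif5b (18.0 ± 1.3) in all 6, Kif5b above Myo10 (10.4 ± 1.76) in all 6, and Myo10 above Tnfaip2 (6.82 ± 0.92) in all 6. Tnfaip2 was above Rhot1 (6.44 ± 0.439) in 5 of 6 and Rhot1 above Trak2 (6.43 ± 0.523) in 3 of 6, so their order varied between libraries. Differences between neighbours were not tested. Trak2 was above Rhot2 (4.98 ± 0.613), Rhot2 above Trak1 (2.45 ± 0.436) and Trak1 above Cd38 (0.234 ± 0.0674) in all 6 libraries. The scatter between libraries was modest: the median coefficient of variation of TMM-scaled counts over 6 libraries was 9.02% for the 9 genes, beside 14.5% for all tested genes and 10.5% for those with at least 5 CPM (counts scaled to library size).

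The Miro GTPases anchor the transport complex to the mitochondrial outer membrane and sense calcium through EF hands. Rhot1 (ENSMUSG00000017686, GRCm38 chromosome 11, 80209019 to 80267907, plus strand) was at 6.02, 6.15 and 6.85 FPKM in mAC 1, 2 and 3 and at 5.99, 6.67 and 6.97 in mAC_Mito 1, 2 and 3. The ranges of the groups lay almost on top of each other. The difference was 0.02 log2 units (standard error 0.09), and its 95% interval ran from 0.883-fold to 1.17-fold. On TMM-scaled counts Rhot1 had the smallest scatter of the 9, a coefficient of variation of 3.94%.

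Rhot2 (ENSMUSG00000025733, chromosome 17, 25838457 to 25844851, minus strand) was at 3.88, 4.93 and 5.39 FPKM in mAC and at 4.84, 5.24 and 5.63 in mAC_Mito. The mAC 1 library was the lowest of the 6, and the other 5 lay between 4.84 and 5.63. Rhot2 differed by 0.13 log2 units (standard error 0.12), with an interval of 0.914-fold to 1.31-fold. The level of Rhot2 is uncertain because of overlapping genes. On its strand GENCODE M21 places Gm20683, which shares 1307 exon bases with it and was given 81, 99 and 76 counts in mAC and 85, 0 and 11 in mAC_Mito, and Wdr90, which shares 81 exon bases. Rhot2 itself had 1222 to 1742 counts, and how reads in shared exons were assigned is not stated.

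Rhot1 was the more abundant Miro in every library. The ratio of Rhot1 to Rhot2 FPKM was 1.55, 1.25 and 1.27 in mAC and 1.24, 1.27 and 1.24 in mAC_Mito. Apart from mAC 1 it was nearly constant. The log2 ratio differed by -0.11 between the groups (two-sided exact permutation p = 0.3, adjusted over 2 ratios 0.3, where 3 against 3 libraries cannot go below 0.1), and by -0.011 without mAC 1.

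The TRAK adaptors link Miro to the motors, TRAK1 to both kinesin-1 and dynein and TRAK2 mainly to dynein in neurons. Trak2 (ENSMUSG00000026028, chromosome 1, 58900449 to 58973430, minus strand) was at 6.36, 6.09 and 6.44 FPKM in mAC and at 6.01, 7.44 and 6.22 in mAC_Mito. One library, mAC_Mito 2, stood above the rest. Trak2 differed by 0.03 log2 units (standard error 0.10; 0.872-fold to 1.2-fold).

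Trak1 (ENSMUSG00000032536, chromosome 9, 121297502 to 121474918, plus strand) was at 1.95, 2.27 and 2.33 FPKM in mAC and at 2.20, 2.80 and 3.14 in mAC_Mito. On this scale the groups overlapped, because mAC_Mito 1 lay below mAC 2 and mAC 3. In TMM-scaled CPM Trak1 was at 30.5, 32.9 and 32.6 in mAC and at 33.3, 39.2 and 44.8 in mAC_Mito, so that the groups just failed to overlap. CPM of the unscaled totals overlapped again, with 33.6 in mAC 3 and 33.1 in mAC_Mito 1. Trak1 differed by 0.29 log2 units (standard error 0.12), or 1.22-fold with an interval of 1.01-fold to 1.48-fold (edgeR unadjusted p = 0.0419, adjusted p = 0.99992). Trak1 ranked 457 of 17645 genes by p-value. The log2 fold change was 0.18 without mAC_Mito 3 and 0.39 without mAC_Mito 1, and over the alternatives the adjusted p ran from 0.574 to 0.99997.

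In every library Trak2 was the more abundant adaptor per length. The ratio of Trak1 to Trak2 FPKM was 0.307, 0.374 and 0.362 in mAC and 0.365, 0.376 and 0.504 in mAC_Mito. Only mAC_Mito 3 stood clearly above the rest, and mAC 1 below. The log2 ratio differed by 0.25 between the groups (two-sided exact permutation p = 0.2, adjusted over 2 ratios 0.3), and by 0.097 without mAC_Mito 3.

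**Figure D2:**
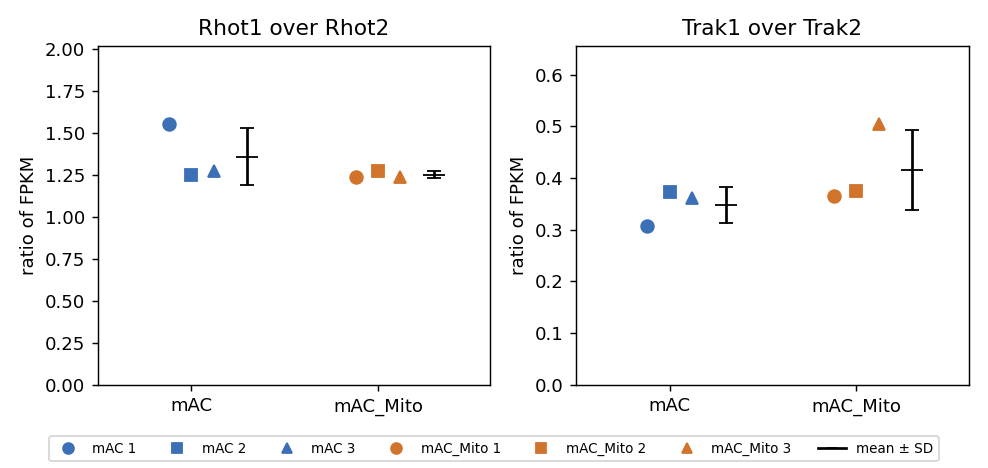
Ratio of FPKM of Rhot1 to Rhot2 (left) and of Trak1 to Trak2 (right) in each library, with the mean ± SD of each group in black (n = 3). The Rhot1 to Rhot2 ratio lies between 1.24 and 1.27 in all libraries but mAC 1, at 1.55, and the Trak1 to Trak2 ratio reaches 0.504 in mAC_Mito 3 alone.

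Kif5b, the heavy chain of kinesin-1 that pulls mitochondria toward the cell edge, was the second most abundant of the 9. Kif5b (ENSMUSG00000006740, chromosome 18, 6201002 to 6241523, minus strand) was at 17.9, 17.7 and 19.5 FPKM in mAC and at 16.7, 19.5 and 16.6 in mAC_Mito. Within each group 1 library reached 19.5, and the others lay between 16.6 and 17.9. Between the groups the log2 difference was -0.08 (standard error 0.10; 0.814-fold to 1.09-fold). Among the 3 kinesin-1 heavy chain genes Kif5b took 96.4% to 98.1% of the summed FPKM in each library, while Kif5a and Kif5c, known as neuronal forms, did not exceed 0.252 and 0.479 FPKM. The light chain Klc1 was at 13.3 ± 1.26 and 13.9 ± 0.94 FPKM. Kif5b overlaps antisense genes by 142 and 182 exon bases in GENCODE M21; whether counting used strand is not stated.

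Connexin 43, encoded by Gja1, was the most abundant of the 9 and the leading connexin of these cells. Gja1 (ENSMUSG00000050953, chromosome 10, 56377330 to 56402513, plus strand) was at 21.7, 21.1 and 22.6 FPKM in mAC and at 19.8, 22.8 and 21.4 in mAC_Mito. The highest and the lowest library both belonged to mAC_Mito. The log2 difference was -0.05 (standard error 0.09), which bounds the difference between 0.838-fold and 1.11-fold. With 15252 to 17058 counts per library it was also the most precisely counted.

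Over the 15 connexin genes in the table, Gja1 took 72.3% to 75.3% of the summed FPKM. Gjc1 (connexin 45) followed with 11.7% to 15.2%, at 3.77 ± 0.352 FPKM in mAC and 4.15 ± 0.422 in mAC_Mito. Of the 14 connexins besides Gja1, 6 were tested and 0 passed. Ctnnb1, the cadherin-bound beta-catenin, led the 10 connexin partners at 168 ± 21.4 and 170 ± 13.7 FPKM, and the scaffold Tjp1 (ZO-1) was at 16.6 ± 2.23 and 18.4 ± 2.83. None of the 10 partners passed.

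TNFAIP2 starts nanotube-like protrusions together with the small GTPase RALA and the exocyst, a vesicle-tethering complex. Tnfaip2 (ENSMUSG00000021281, chromosome 12, 111442469 to 111455018, plus strand) was at 6.02, 6.66 and 6.96 FPKM in mAC and at 5.90, 6.92 and 8.46 in mAC_Mito. The mAC_Mito group held both the highest and the lowest library. Tnfaip2 differed by 0.09 log2 units (standard error 0.12; 0.882-fold to 1.29-fold), and -0.041 without mAC_Mito 3. Tnfaip2 is also known from myeloid cells. The 11 macrophage and leukocyte markers in the table summed to 67.9 to 84.4 FPKM in mAC and to 74.5 to 120 FPKM in mAC_Mito, with the 120 in mAC_Mito 3, where Tnfaip2 was highest. Lyz2 alone made up 96.4 of these 120 FPKM, and Cd68, Ptprc, Itgam, Cd14 and Cd74 were each highest in another library. Ptprc (CD45) lay between 0.0231 and 0.0915 FPKM over the 6 libraries, and no marker was at 0 in all of them. The part of these cells in the Tnfaip2 level was not tested.

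Rala had a mean FPKM of 17.4 ± 1.17 in mAC and of 17.1 ± 1.75 in mAC_Mito, Ralb at 6.51 ± 0.601 and 6.98 ± 0.311, and the exocyst subunits Exoc2 and Exoc3 at 3.84 ± 0.524 and 3.99 ± 0.472, and at 10.7 ± 0.373 and 10.3 ± 0.206. Rab11a, a recycling endosome GTPase, led this list at 30.0 ± 4.56 and 30.6 ± 1.5 FPKM. Of the 15 tested genes besides Tnfaip2, 0 passed, 9 had a log2 fold change above 0 and their median was 0.02. Ralb did not overlap between the groups on TMM-scaled counts and was higher in mAC_Mito, with a log2 fold change of 0.08 (standard error 0.09).

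Myosin-X walks along actin bundles to the tips of filopodia. Myo10 (ENSMUSG00000022272, chromosome 15, 25622525 to 25813673, plus strand) was at 9.38, 8.93 and 9.79 FPKM in mAC and at 8.96, 12.6 and 12.6 in mAC_Mito. Libraries mAC_Mito 2 and 3 stood above all others, while mAC_Mito 1 lay among the mAC libraries. Myo10 differed by 0.26 log2 units (standard error 0.12), or 1.19-fold with an interval of 0.987-fold to 1.44-fold (edgeR unadjusted p = 0.0649, adjusted p = 0.99992). Leaving out mAC_Mito 1 gave 0.37 (adjusted p = 0.558), leaving out mAC_Mito 3 gave 0.19, and over the alternatives the adjusted p ran from 0.558 to 0.99997.

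Among the other listed genes, Tln1 and Dync1h1 were also high in mAC_Mito 2 and 3. Tln1 (talin, which ties integrins to actin) was at 22.5, 23.1 and 24.7 FPKM in mAC and at 21.8, 36.5 and 35.6 in mAC_Mito. Dync1h1, the dynein heavy chain, was at 7.83, 7.25 and 9.32 and at 7.24, 15.9 and 13.7. Both were picked for this after their values were seen. The share of all genes that are high in these libraries was not counted, so no shared pattern is read from them. In each, mAC_Mito 2 and 3 were above the other 4 libraries. For Tln1 mAC_Mito 1 was the lowest of all 6. For Dync1h1 mAC_Mito 1 was lowest in FPKM only narrowly (7.238 beside 7.249 in mAC 2). In TMM-scaled CPM mAC 2 was the lowest for Dync1h1, at 131 beside 136 in mAC_Mito 1. Gene models with at least 8 kb of exons (2106 genes with at least 5 CPM) had median deviations from their mean of 0.05, -0.08 and -0.05 log2 units in mAC 1, 2 and 3 and of -0.06, 0.11 and 0.02 in mAC_Mito. Those under 2 kb had -0.11, 0.06 and 0.06, and 0.03, -0.04 and 0.01. Myo10 deviated by 0.24 and 0.26 in mAC_Mito 2 and 3. The members with at least 8 kb were Trak1 (12568 exon bases), Gja1 (10257) and Myo10 (10122). Their log2 fold changes were 0.29, -0.05 and 0.26. Of the 2106 genes of at least 8 kb, 63.7% had a log2 fold change above 0 (median 0.05), beside 50.4% of all tested genes (0.0016). The part of transcript length in these values was not tested. Some chondrocyte markers were high in the same libraries and others were not. Acan (aggrecan) was at 81.1, 64.4 and 79.7 FPKM in mAC and at 63.5, 134 and 113 in mAC_Mito. Col2a1 was at 1099, 1026 and 1226 and at 951, 1662 and 1559. Hapln1 was lowest in mAC_Mito 2 and 3, at 49.9, 46.7 and 44.3 and at 46.4, 42.7 and 41.9. Matn1 was at 2.36, 3.93 and 4.37 and at 2.45, 3.12 and 2.78. Outside the markers, Flna (filamin A, an actin crosslinker) was high in mAC_Mito 2 and 3, at 76.0, 81.2 and 91.2 and at 74.4, 126 and 117. Acan, Hapln1, Matn1 and Flna were named after their values were seen, and no shared pattern is read from them either. The part of chondrocyte gene levels in the Myo10 difference was not tested.

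**Figure D3:**
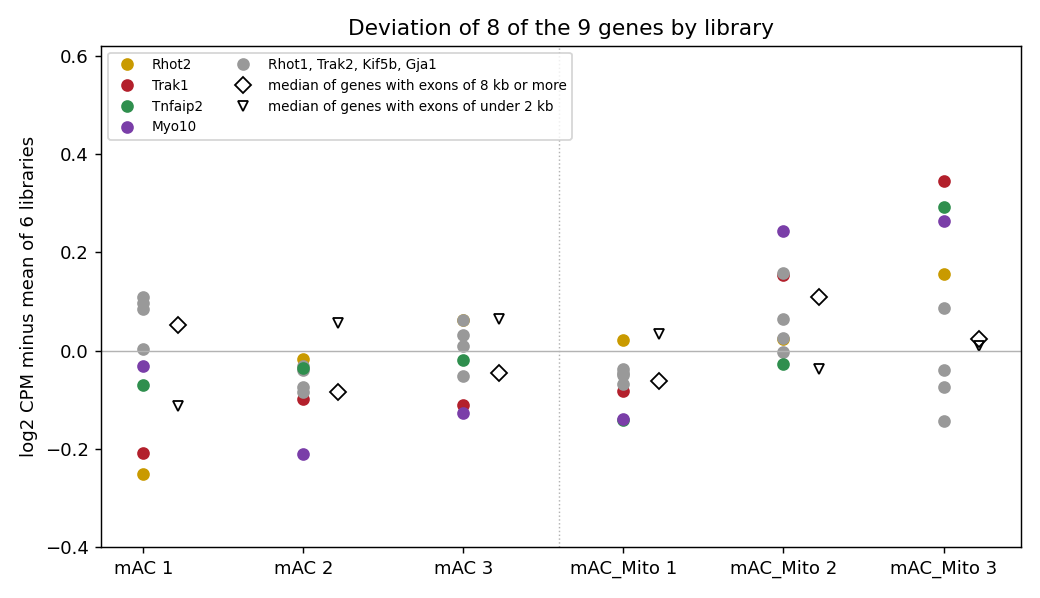
Deviation of log2 CPM from the mean over all 6 libraries, for 8 of the 9 genes (coloured and grey points; Cd38 is left out for its low counts) and for the median of genes with long and with short exon models (open symbols). Trak1, Myo10 and Tnfaip2 are highest in mAC_Mito 3, at 0.35, 0.26 and 0.29, while mAC_Mito 1 lies near the mAC libraries.

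Among the other genes of filopodia and actin protrusions Itgb1, an adhesion receptor, led with a mean FPKM of 220 ± 27.9 in mAC and of 210 ± 21.98 in mAC_Mito, the actin bundler Fscn1 was at 139 ± 12.9 and 150 ± 10.6, and the actin nucleator Diaph3 at 7.34 ± 0.365 and 7.11 ± 0.868. Of 17 tested genes besides Myo10, 0 passed, 12 lay above 0 and the median log2 fold change was 0.04. Diaph1 and Tln1, named after their values were seen, had an unadjusted p under 0.05, with log2 fold changes of 0.26 and 0.39.

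Cd38, whose enzyme turns NAD into the calcium messenger cyclic ADP-ribose, was close to the limit of measurement. Cd38 (ENSMUSG00000029084, chromosome 5, 43868553 to 43912375, plus strand) was at 0.318, 0.179 and 0.235 FPKM in mAC and at 0.250, 0.287 and 0.136 in mAC_Mito. The libraries of the groups were interleaved. These levels rest on 88, 56 and 66 counts in mAC and 75, 76 and 38 in mAC_Mito. Exact Poisson 95% intervals, which cover counting error only, ran from 70.6 to 108 counts in mAC 1 and from 26.9 to 52.2 in mAC_Mito 3. Cd38 differed by -0.15 log2 units (standard error 0.39), and its interval, 0.495-fold to 1.65-fold, was the widest of the 9. The sign turned without mAC 1 (0.15) or without mAC_Mito 3 (0.11).

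Bst1 (CD157), the related ADP-ribosyl cyclase, was also scarce, at 0.351 ± 0.112 and 0.434 ± 0.218 FPKM, and lay above Cd38 in all libraries but mAC 1. Cd38 took between 16.6% and 57.6% of their sum. Nadk, which phosphorylates NAD, led the list at 30.9 ± 2.49 and 30.0 ± 2.79 FPKM. Of 17 tested NAD and calcium-release genes besides Cd38, 0 passed, and 12 had a log2 fold change above 0, with a median of 0.25 beside 0.0016 for all genes. Itpr1 and Itpr3, calcium channels of the endoplasmic reticulum named after their values were seen, had an unadjusted p under 0.05. Itpr3 was at 4.87, 5.003 and 5.496 FPKM in mAC and at 4.92, 9.14 and 8.83 in mAC_Mito. The share of all genes that are high in mAC_Mito 2 and 3 was not counted.

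**Figure D4:**
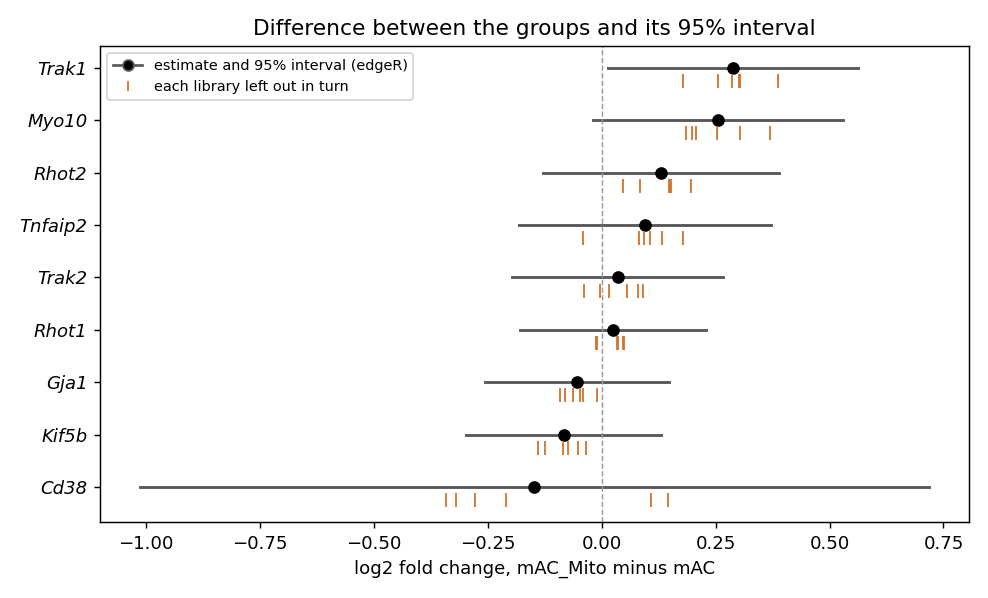
Log2 fold change (mAC_Mito minus mAC) of the 9 genes from edgeR with its 95% interval, and below each the value with each library left out in turn (orange ticks). The interval of Trak1 alone lies above 0, from 0.01 to 0.56, and the widest is that of Cd38, from -1.01 to 0.72.

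Beyond the members, the rest of the Miro and TRAK complex was present. The Miro-binding proteins of the Armcx family were well expressed, Armcx2 at 24.1 ± 1.14 FPKM in mAC and 24.998 ± 0.425 in mAC_Mito and Armcx3 at 15.9 ± 4.01 and 16.3 ± 2.22. Myo19, the actin motor of mitochondria, was at 3.72 ± 0.478 and 3.29 ± 0.394, and Snph, which docks mitochondria in axons, at 0.26 ± 0.0667 and 0.304 ± 0.0811. Of the 13 genes tested besides the members, 0 passed, 7 lay above 0 and the median log2 fold change was 0.01. Ogt, the glycosyltransferase that modifies TRAK proteins, is named after its values were seen. It was at 12.45, 10.8 and 13.6 FPKM in mAC and at 10.1, 11.1 and 10.1 in mAC_Mito, with a log2 fold change of -0.26 (standard error 0.11), an unadjusted p of 0.04004 and an adjusted p of 0.99992.

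Dynein moves mitochondria toward the cell centre. Of the 22 dynein and dynactin genes, all tested, 0 passed, 10 lay above 0 and the median was -0.02. Dynlrb1, a small dynein subunit, was the most abundant at 214 ± 40.2 and 190.1 ± 48.3 FPKM. Dync1h1 had an unadjusted p of 0.0309 with a log2 fold change of 0.56 (standard error 0.22). Of the 8 kinesin genes besides Kif5b, 0 passed, 6 lay above 0 and the median was 0.09. Over all 9 lists together, 0 of 124 tested genes that are not members passed, 6 had an unadjusted p under 0.05 (4.84%, beside 3.19% of all genes), and 10 did not overlap between the groups (8.06%, beside the 8.31% of all genes).

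**Figure D5:**
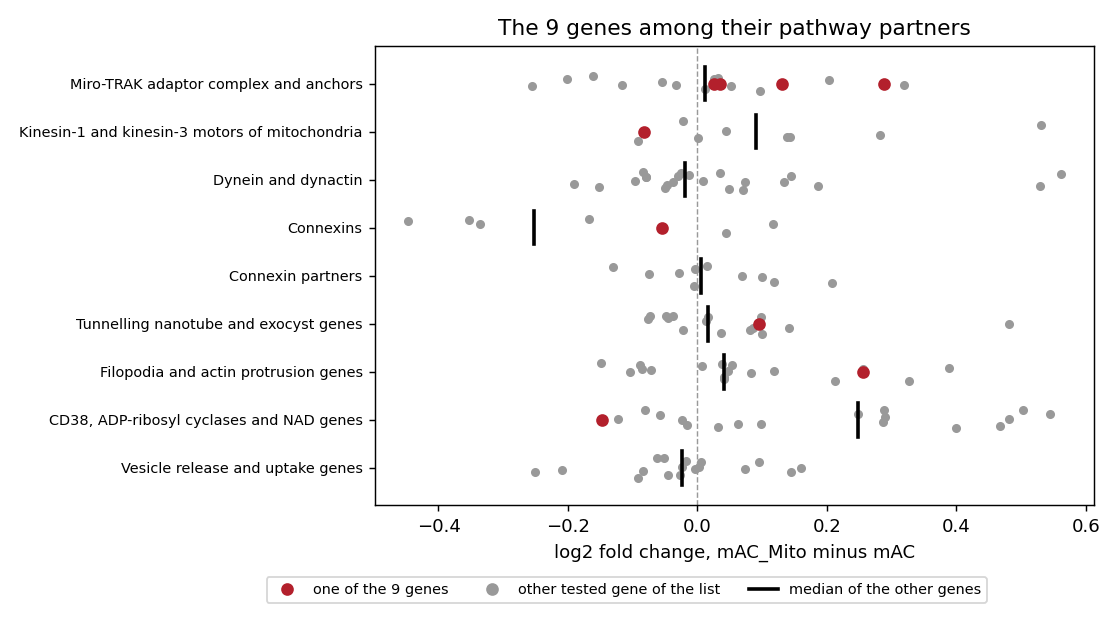
Log2 fold change (mAC_Mito minus mAC) of the 9 genes (red) and of the other tested genes (grey) of 9 pathway lists, with the median of the other genes as a black bar. Medians lie between -0.25 (connexins, 6 genes) and 0.25 (NAD genes, 17 genes), and none of the genes shown passed the adjusted threshold.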

How the data were processed

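Messenger RNA of 6 chondrocyte libraries was measured by paired-end sequencing after poly(A) selection, per the labels. The authors deposited raw counts per gene and FPKM values for each library, per the file headers. Bowtie 0.12.2, HISAT2 2.0, StringTie 1.3.0 and the build mm8 are listed, with no roles, in the submitters' processing notes; how reads were counted, and whether by strand, is not stated. Of 26902 identifiers shared with GENCODE M21, 26821 (99.7%) had at least 1 end at its GRCm38 position, so positions are on GRCm38. Counts were compared with edgeR 4.0.16 in R 4.3.3 (quasi-likelihood, filterByExpr with minimum count 10 and total 15, TMM, two-sided, Benjamini-Hochberg over 17645 genes, threshold 0.05), tested first on simulated data. Standard errors and 95% intervals follow from its F statistic. Sample SDs are over 3 libraries, but over all 6 libraries of both groups where the order of the levels is given. Ratios used exact permutation tests. Alternatives were RLE or no scaling, no filter, DESeq2 1.42.0, limma 3.58.1 on log2(FPKM + 1) or log2(FPKM + 0.1) for genes with FPKM of 0.1 or more in 3 libraries, a replicate block and leaving out each library.

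Every pair of libraries differed by more than sampling noise (chi-square per degree of freedom 23.6 or more). The closest pair lay across the groups, mAC 2 with mAC_Mito 1, followed by mAC_Mito 2 with mAC_Mito 3 at 25.2. Pairs within a group reached 180.6 (mAC 1 with mAC 3) and 131.4 (mAC_Mito 1 with mAC_Mito 2). Members and lists were chosen with earlier results of these data known. Named genes were the members, the most abundant gene of each list, genes past the threshold and 15 fixed partners; others are marked as named after their values were seen. Totals of 59116068 to 68378213 counts limit mainly Cd38.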

Additional observations from a re-analysis of the deposited data

How the results depend on the processing

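None of the 9 genes passed in any of the 13 alternatives, and no gene of the pathway lists did; the lowest adjusted p of a member was 0.558 (Myo10, without mAC_Mito 1). Signs held in all 13 for Gja1, Kif5b, Myo10, Rhot2 and Trak1. They turned for Cd38 without mAC 1 (0.15) or mAC_Mito 3 (0.11), for Rhot1 without mAC 2 (-0.010) or mAC_Mito 3 (-0.013), for Trak2 without mAC 2 (-0.0045) or mAC_Mito 2 (-0.039), and for Tnfaip2 without mAC_Mito 3 (-0.041); the cause was not tested. Leaving out a library moved Cd38 between -0.34 and 0.15, Rhot1 between -0.013 and 0.048, Trak2 between -0.039 and 0.0905 and Tnfaip2 between -0.041 and 0.18. The unadjusted p of Trak1 was over 0.05 with limma on either log scale and without mAC 1, 2 or 3 or mAC_Mito 2 or 3. The log2 differences of the Rhot1 to Rhot2 and Trak1 to Trak2 ratios kept their signs, from -0.17 to -0.011 and from 0.097 to 0.33.

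Over all genes 1 passed as higher and 1 as lower. Without a filter 0 and 0 passed, with DESeq2 3 and 2, and with limma on log2(FPKM + 1) 1 and 0. Leaving out a library gave 0 to 3 higher and 0 to 1 lower. With the replicate number as a block the counts were 1 and 1, the Trak1 value 0.28 and the ratio differences -0.11 (exact p = 0.5) and 0.25 (exact p = 0.25). Deviations of same-numbered libraries correlated at 0.124, -0.06 and -0.012, and those of differently numbered ones from -0.14 to 0.154. With 3 libraries per group these values cannot decide whether the numbers mark a shared culture or batch. Depth limits Cd38, with 38 to 88 counts.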

Other observations

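Genes of vesicle release and uptake, another route by which mitochondrial material can leave and enter cells, all had enough counts to be tested. Cd63 was the most abundant, and the others are named after their values were seen. The tetraspanins Cd63, Cd81, Tspan4 and Cd9 were at 149 ± 46.8, 103 ± 5.61, 79.6 ± 14.5 and 64.6 ± 13.2 FPKM in mAC and at 145 ± 17.7, 101 ± 6.65, 77.0 ± 7.87 and 72.8 ± 6.33 in mAC_Mito (SD, n = 3). Tetraspanins organise the membranes of exosomes and of migrasomes, the pouches left behind by moving cells. Of the 17 genes of the list, all tested by edgeR, 0 passed an adjusted p of 0.05, 0 had an unadjusted p under 0.05, 6 had a log2 fold change above 0 and the median was -0.02.

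By the gene ontology terms in the deposited table, 5 of the 9 genes are annotated to the mitochondrion (Rhot1, Rhot2, Trak1, Trak2 and Gja1) and 3 to its outer membrane (Rhot1, Rhot2 and Gja1), a term held by 161 genes of the table. Trak1, Trak2 and Kif5b share vesicle transport along microtubules, held by 18 genes.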
